A study of Homo sapiens with 38 samples.

Results

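NEAT1, MALAT1 and KCNQ1OT1 are 3 long noncoding RNAs (lncRNAs) known for staying in the nucleus. They were found in the raw count table by Ensembl gene identifier without the version (ENSG00000245532, ENSG00000251562 and ENSG00000269821), and are 3 of its 90127 features, 36524 of which it types as lncRNA. All 3 were matched, and together they show how a well counted, a nearly uncounted and an unevenly counted nuclear RNA appear in small RNA libraries of cells, vesicles and pulled-down RNA. KG1a and HL60 are established human lines of acute myeloid leukaemia (genotype WT). Small RNA was sequenced from the cells and from 2 size classes of extracellular vesicle that they release, large (lEV) and small (sEV). Each of these 6 sources was sequenced as total RNA and as rPAL RNA, that is, RNA pulled down through biotin placed on periodate-oxidised sialic acid, which enriches RNA bearing sialylated glycans. The 38 libraries form 12 groups, with n = 4 for KG1a cells total and KG1a cells rPAL and n = 3 for KG1a lEV, KG1a sEV, HL60 cells, HL60 lEV and HL60 sEV, each as total and as rPAL. Cells grew in medium with 10% serum, whereas vesicles came from cells kept 2 days without serum, so source and culture cannot be told apart. Separate cultures are not stated for the replicates in the labels, and a p-value here therefore reflects only how far the libraries spread, which may be technical.

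NEAT1 is the scaffold around which paraspeckles, nuclear bodies of RNA and RNA-binding proteins, assemble. MALAT1 concentrates in nuclear speckles, where splicing factors gather, and is transcribed from a gene close to NEAT1. Both transcripts carry a tRNA-like structure that RNase P cuts off, which gives the long RNA its mature end and releases a small tRNA-like RNA. KCNQ1OT1 is transcribed antisense from within KCNQ1 on the paternal chromosome and silences neighbouring imprinted genes such as CDKN1C in cis. Because the libraries were made from size-selected small RNA, a count on any of the 3 genes is a count of short pieces and not of the whole transcript.

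In GENCODE 29 on GRCh38, NEAT1 lies at chr11:65422774-65445540 on the plus strand, MALAT1 at chr11:65497688-65506516 on the plus strand and KCNQ1OT1 at chr11:2608328-2699994 on the minus strand. Over all transcripts, exons cover every base of each gene, 22.767 kb for NEAT1, 8.829 kb for MALAT1 and 91.667 kb for KCNQ1OT1. The tRNA-like ends of MALAT1 and NEAT1 are the best known short RNAs of these loci and have features of their own in the table. They are shown here, as the sense strand in the GENCODE 29 transcripts, since a small RNA library could have held them whole. Capitals mark the 2 runs of at least 8 bases that both ends share, 17 bases in all.
MALAT1 tRNA-like end, chr11:65506117-65506173, plus strand: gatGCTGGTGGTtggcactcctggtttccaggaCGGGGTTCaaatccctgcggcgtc
NEAT1 tRNA-like end, chr11:65445541-65445598, plus strand: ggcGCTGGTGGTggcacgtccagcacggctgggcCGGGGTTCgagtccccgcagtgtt
Neither end had a single count in any of the 38 libraries. The MALAT1 end lies inside the annotated gene, and the NEAT1 end begins at the base after the annotated gene stops. With these ends, 11 short noncoding features are annotated in or directly beside the 3 genes, and all 11 were at 0, 7 on the gene's own strand and 4 on the other, MIR612 inside NEAT1 among them. A sum of 0 counts of 344559041 allows at most 0.00871 CPM (counts per 1000000 counts of a library) for each, in counting error only. Reads of these short RNAs may have been assigned to RNAcentral entries that carry no symbol (features without a symbol held 85.6% of counts), so the zeros are zeros of these features only.

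NEAT1 was the best counted of the 3, with 5787 counts in 36 of 38 libraries and at most 873 in one. KCNQ1OT1 had 3110 counts and was the only one with a count in all 38 libraries, from 3 to 1565. MALAT1 had 67 counts, in 11 of 38 libraries, with at most 16 in one. Per kilobase of exon, the sums over all libraries were 254 counts for NEAT1, 33.9 for KCNQ1OT1 and 7.59 for MALAT1. Of the 3110 KCNQ1OT1 counts, 1565 came from 1 library, HL60 sEV total replicate 1. In total RNA of cells MALAT1 stood above KCNQ1OT1 per kb, 0.107 against 0.0130 CPM in KG1a and 0.0287 against 0.0129 in HL60. It also did so in KG1a lEV total, from 3 counts, and stood below KCNQ1OT1 in every other group. Library totals ran from 5498168 to 14892937 counts for total RNA and from 2380745 to 15532758 for rPAL RNA. Of the 12 listed myeloid markers, CD34 and MPO went with the labels. CD34, the surface marker of primitive blood cells, had 2.95 ± 1.47 CPM (mean ± SD, n = 4) in KG1a cells total against 0.0704 ± 0.0699 (n = 3) in HL60 cells total. MPO, the neutrophil granule peroxidase, had 2.49 ± 0.943 CPM in HL60 cells total against 0.0181 ± 0.0362 in KG1a cells total. ELANE, the neutrophil elastase gene, was at 0 in all libraries of cells. The 12 listed myeloid markers summed to 4.62 to 8.30 CPM in KG1a cells total and to 5.51 to 7.49 CPM in HL60 cells total. The 11 listed markers of other cells or serum summed to 0 to 0.672 and 0.470 to 0.713 CPM there, and reached 29.6 CPM in a KG1a lEV rPAL library. The haemoglobin gene HBB never exceeded 3 counts in a library and neither did ALB, the liver's albumin gene. Both were at 0 in KG1a lEV rPAL, so the 29.6 CPM there came from other markers of that list.

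**Figure D1:**
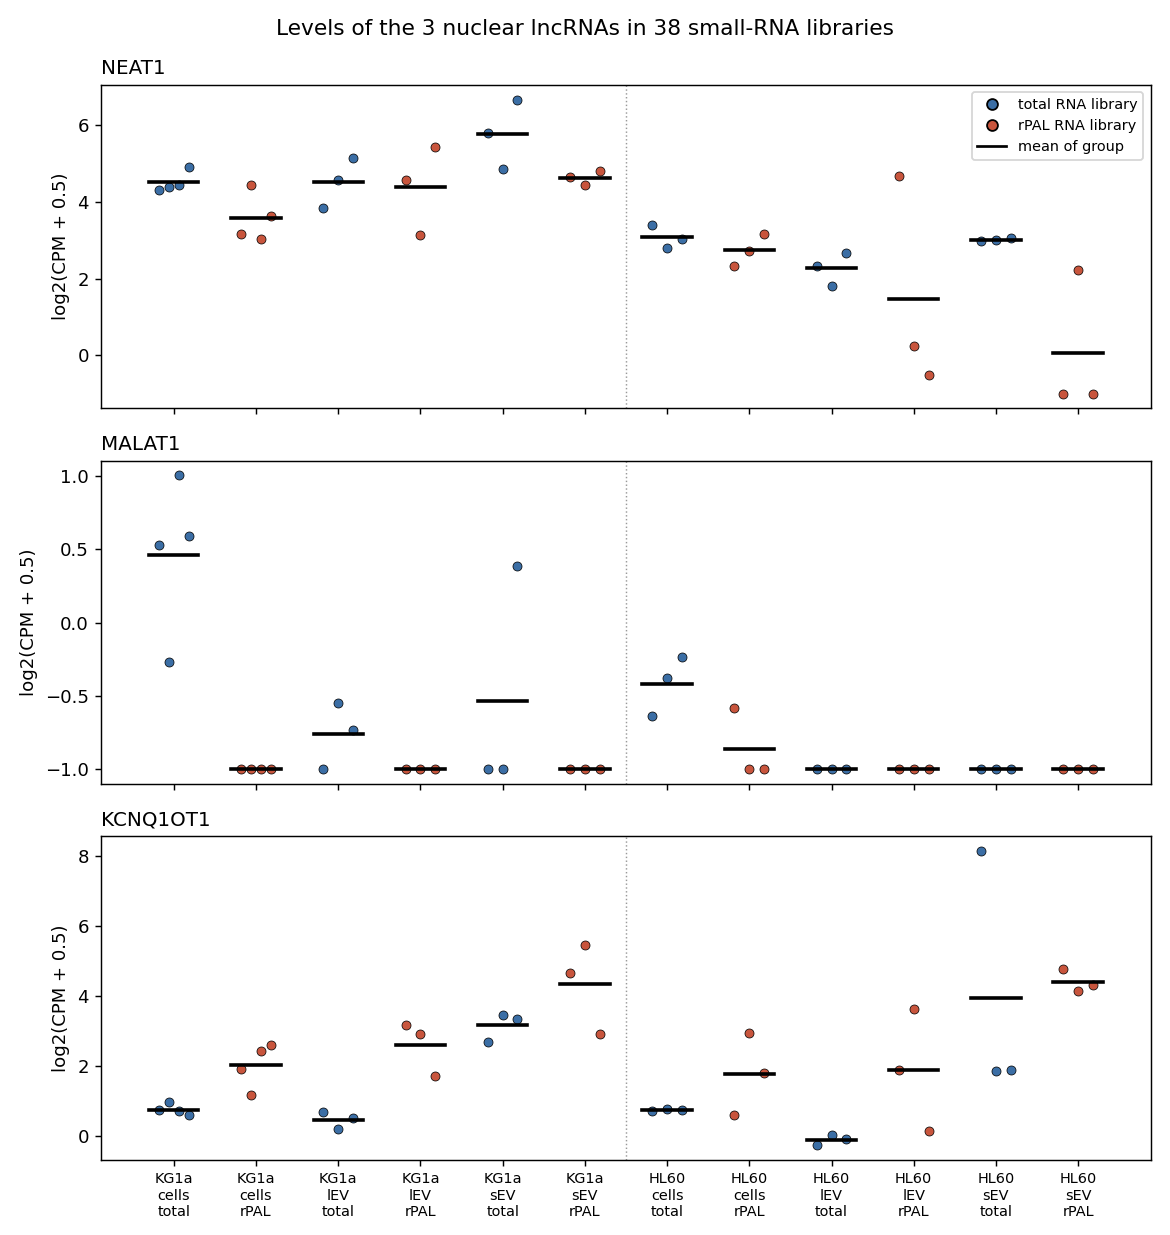
Level of NEAT1, MALAT1 and KCNQ1OT1 in each of the 38 libraries, as log2(CPM + 0.5), by line, source and RNA kind. Points are libraries, blue for total and red for rPAL RNA, and black bars are group means of the log values; NEAT1 is higher in KG1a than in HL60 groups, MALAT1 lies at the floor in all vesicle and rPAL groups but a few libraries, and KCNQ1OT1 is highest in sEV groups.

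NEAT1 was counted in cells and in both kinds of vesicle, at a higher mean CPM in every KG1a group than in any HL60 group. The difference between the lines was not tested. In KG1a cells total it had 19.3, 20.5, 21.2 and 29.3 CPM, and in KG1a lEV total 13.8, 23.2 and 34.9 CPM. KG1a sEV total had 54.8, 28.4 and 101.1 CPM, the highest group mean of the 12 (61.4 ± 36.8 CPM, n = 3). The lEV and cell values overlapped, and of the KG1a sEV libraries only replicate 2 fell within the range of the cells. In HL60 the levels were 10.1, 6.51 and 7.62 CPM in cells total, 4.53, 3.0 and 5.84 CPM in lEV total, and 7.46, 7.55 and 7.78 CPM in sEV total. HL60 lEV lay below HL60 cells with no overlap, while HL60 sEV lay within the range of the cells. Ordered by mean CPM, all 6 KG1a groups stood above all 6 HL60 groups, from 61.4 in KG1a sEV total to 1.38 in HL60 sEV rPAL. Each group overlapped its neighbour in that order, so no single step exceeded the spread between libraries.

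The comparison of vesicles with cells asks whether a nuclear RNA is carried out of the cell in the same proportion as the rest of the small RNA. After scaling of the libraries by TMM, which sets the bulk of features to no change, no vesicle difference of NEAT1 passed the test (edgeR quasi-likelihood test, Benjamini-Hochberg adjusted over all features tested, here and below). In KG1a lEV total the log2 fold change against cells was -0.05 ± 0.38 (SE; adjusted p = 0.931), in a comparison that called 52.3% of all features tested. In KG1a sEV total it was 0.21 ± 0.42 (adjusted p = 0.700), where 45.1% of features were called. Without TMM scaling this last difference was 1.44 (adjusted p = 0.0159), and the median of all features moved with it, from 0.22 to 1.34. HL60 gave -0.05 ± 0.42 in lEV total (adjusted p = 0.943; 27.3% of features called) and -0.33 ± 0.44 in sEV total (adjusted p = 0.617; 26.7% called). The intervals of these 4 differences ran from -0.80 to 0.71, -0.61 to 1.03, -0.88 to 0.78 and -1.19 to 0.53. They take the SE times the normal quantile for 95%, which is too narrow for so few libraries. Changes of these sizes, and somewhat beyond them, are therefore not excluded.

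In rPAL RNA the mean CPM of NEAT1 was below that of total RNA in 4 of the 6 sources, the exceptions being KG1a lEV (24.7 against 24) and HL60 lEV (8.63 against 4.46). KG1a cells rPAL had 8.44, 21.1, 7.73 and 11.9 CPM, and 3 of these 4 lay below every total RNA library of the same cells. KG1a lEV rPAL had 23.1, 8.29 and 42.9 CPM, spread around the total RNA values, with 1 library above the highest of them. KG1a sEV rPAL had 24.6, 21.4 and 27.3 CPM, all below the 3 total libraries. HL60 cells rPAL had 4.55, 6.11 and 8.49 CPM and overlapped the total RNA. HL60 lEV rPAL was uneven, with 118, 3 and 1 counts or 25.0, 0.694 and 0.201 CPM. HL60 sEV rPAL had 0, 14 and 0 counts, where a count of 0 allows up to 0.758 CPM in replicate 1 and 1.26 CPM in replicate 3. In replicate 2, the library with the 14 counts, 40.1% of counts lay on the single gene PCNA (named after its value was seen), and its part in the NEAT1 value was not tested.

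In none of the 6 sources did NEAT1 differ between rPAL and total RNA by the test. The log2 fold change was -1.09 ± 0.51 in KG1a cells (adjusted p = 0.188; 18.8% of features called), -0.20 ± 0.97 in KG1a lEV (adjusted p = 0.936; 10.2% called) and -1.39 ± 1.35 in KG1a sEV (adjusted p = 0.628; 6.61% called). It was -0.57 ± 0.46 in HL60 cells (adjusted p = 0.379; 38.6% called), -0.56 ± 1.69 in HL60 lEV (adjusted p = 0.848; 31.3% called) and -2.24 ± 1.81 in HL60 sEV (adjusted p = 0.490; 18.8% called). All 6 estimates lay below 0. The lEV estimates turned with the settings: without TMM scaling they were 0.04 in KG1a lEV and 0.95 in HL60 lEV. In HL60 lEV the estimate was -5.11 (adjusted p = 0.0305) without rPAL replicate 1 and 0.08 without rPAL replicate 2. Replicate 1 also had 220 of 1091 features of at least 100 counts at 20 times or more the CPM of both other replicates, NEAT1 among them, and replicates 2 and 3 had 195 and 445 such features; the part of this spread in the estimate was not tested. Fitted over all 38 libraries, the mean of the 6 sources fell by 1.42 on the log2 scale in rPAL RNA (SE 0.47, adjusted p = 0.0105), in a fit that called 43.9% of features. The median of all features in that fit was -0.82, so NEAT1 lay 0.59 below the median feature. The fall was 0.66 on the log2 scale without TMM scaling (-0.66, adjusted p = 0.299), 1.11 without replicate 3 of every group (-1.11, adjusted p = 0.113), and larger without replicate 1 (-2.23) or replicate 2 (-2.29).

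Between rPAL RNA of vesicles and of cells, NEAT1 gave no difference that passed the test. The log2 fold changes were 0.82 ± 1.18 in KG1a lEV (adjusted p = 0.841; 0.584% of features called), 0.17 ± 1.38 in KG1a sEV (adjusted p = 0.981; 5.31% called), 0.94 ± 1.85 in HL60 lEV (adjusted p = 0.763; 19.9% called) and -2.02 ± 1.81 in HL60 sEV (adjusted p = 0.521; 20.6% called). In KG1a sEV all 3 rPAL libraries lay above the 4 of cells (24.4 against 12.3 CPM on average). The HL60 sEV rPAL libraries all lay below those of HL60 cells (1.38 against 6.39 CPM on average).

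MALAT1 was counted almost only in the total RNA of cells. KG1a cells total held 13, 4, 16 and 12 counts (0.942, 0.329, 1.51 and 1.01 CPM) and HL60 cells total held 2, 4 and 5 counts (0.143, 0.269 and 0.349 CPM). Outside cells, it had 0, 2 and 1 counts in KG1a lEV total and 0, 0 and 7 counts in KG1a sEV total. All 6 total RNA libraries of HL60 vesicles and all 12 rPAL libraries of vesicles were at 0. Of the 7 rPAL libraries of cells, only HL60 replicate 1 held a count, a single one.

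In KG1a lEV total MALAT1 had 3 counts against 45 in the cell group, with no overlap (log2 -3.33 ± 0.81, adjusted p = 0.00287; 52.3% of features called). It passed the count filter only through the cells, where it is high, so its test in that fit is no independent support for a difference, and without KG1a cells total replicate 1, 3 or 4 the filter dropped it. With no count filter the value was -3.33 (adjusted p = 0.000679), and the exact two-sided permutation test gave p = 0.0571. In KG1a cells rPAL against total RNA the counts were 0 against 45, a level at least 15.4-fold lower in rPAL RNA with the floor at 3 counts over the group. The 4 rPAL libraries did not overlap the 4 total libraries, and the exact two-sided permutation test on log2(CPM + 0.5) gave p = 0.0286, the smallest that 4 against 4 libraries allow; without any 1 of the rPAL libraries the exact p was 0.0571. The count filter had kept MALAT1 out of the edgeR fit there. In HL60 cells rPAL against total RNA it had 1 against 11 counts (exact permutation p = 0.20, with 0.10 the smallest possible). In HL60 vesicles total RNA its 0 counts set it at least 3.32-fold lower in lEV and at least 2.06-fold lower in sEV than in cells, with no overlap and an exact permutation p of 0.100 in both, the smallest that 3 against 3 allow. KG1a sEV total against cells was not tested by the fit and gave an exact permutation p of 0.143. In bulk libraries such as these, fewer cells or vesicles with MALAT1 and less of it in each cannot be told apart.

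KCNQ1OT1 was scarce in the total RNA of cells and lEV and higher in sEV. KG1a cells total had 1.16, 1.48, 1.13 and 1.01 CPM and KG1a lEV total 1.11, 0.649 and 0.918 CPM, which overlapped. KG1a sEV total had 5.89, 10.5 and 9.72 CPM, each above every cell and lEV library, a mean 7.28-fold that of cells. Against cells, KG1a sEV total rose by 1.81 on the log2 scale after TMM scaling (SE 0.40, adjusted p = 0.00394), one of the 45.1% of features called. It stayed called under every alternative run, from 1.32 without KG1a sEV total replicate 2 to 2.85 without TMM scaling. KG1a lEV total gave -0.51 ± 0.40 against cells (adjusted p = 0.297).

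In HL60 cells total KCNQ1OT1 had 1.14, 1.21 and 1.19 CPM and in HL60 lEV total 0.335, 0.512 and 0.444 CPM. The lEV libraries lay below the cells with no overlap, but the fitted difference of -0.64 ± 0.49 did not pass the test (adjusted p = 0.352). HL60 sEV total had 284.6, 3.12 and 3.17 CPM, from 1565, 26 and 33 counts. Replicates 2 and 3 differed little from each other and lay above every HL60 cell library, and replicate 1 lay far above both. The fit over all libraries gave a rise of 6.07 on the log2 scale (SE 1.72, adjusted p = 0.0304; 26.7% of features called). Without HL60 sEV total replicate 1 the value was 1.05 (adjusted p = 0.108), and the call was also lost on leaving out any 1 of the 3 HL60 cell libraries, with values from 5.55 to 5.99. That library stood apart for many features, by a measure chosen after its values were seen: of its 1254 features with at least 100 counts, 317 (25.3%) were at least 20 times higher in CPM than in both other replicates, KCNQ1OT1 among them. In replicates 2 and 3 there were 15 such features each. PCNA alone took 3.29% of that library, 180727 counts against 30 and 59 in the other replicates. The part of that library's make-up in the KCNQ1OT1 value was not tested.

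**Figure D2:**
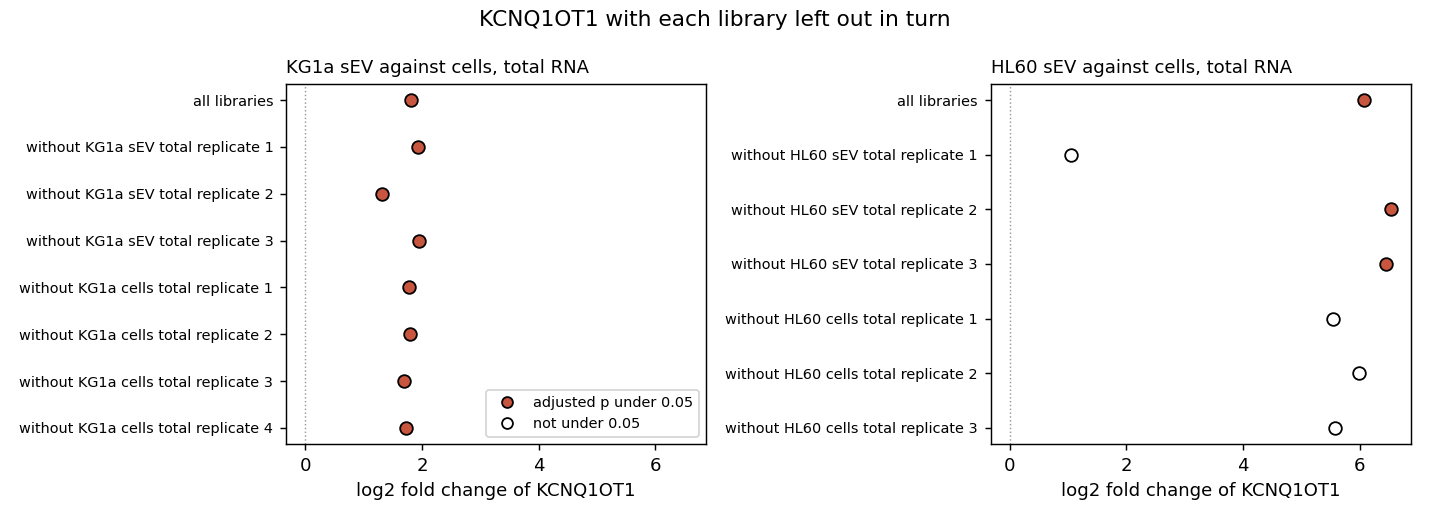
Log2 fold change of KCNQ1OT1 in sEV against cells in total RNA, with all libraries and with each library left out in turn, for KG1a (left) and HL60 (right). Filled points have an edgeR adjusted p under 0.05; the KG1a values stay between 1.32 and 1.95, while the HL60 value is 6.07 with all libraries and 1.05 without sEV replicate 1.

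In rPAL RNA, KCNQ1OT1 had higher CPM than in the total RNA of every source except HL60 sEV, but no single source passed the test. KG1a cells rPAL had 3.27, 1.74, 4.89 and 5.54 CPM, each above all 4 total libraries, a mean 3.23-fold higher (log2 1.63 ± 0.72, adjusted p = 0.156). KG1a lEV rPAL had 8.45, 7.0 and 2.79 CPM, again above all total libraries (log2 2.77 ± 1.26, adjusted p = 0.172). Without KG1a lEV rPAL replicate 3 that difference was 3.23 (adjusted p = 0.0236). KG1a sEV rPAL had 24.6, 44.0 and 7.02 CPM and overlapped the total RNA (log2 1.25 ± 1.49, adjusted p = 0.703). HL60 cells rPAL had 1.01, 7.25 and 2.99 CPM and overlapped as well (log2 1.37 ± 0.72, adjusted p = 0.174). HL60 lEV rPAL had 3.18, 12 and 0.603 CPM, from 15, 52 and 3 counts, each above the highest total library at 0.512. The count filter dropped KCNQ1OT1 from that fit, and the exact permutation p was 0.100, the smallest possible.

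HL60 sEV rPAL had 26.8, 17.1 and 19.3 CPM, between total replicate 1 and the other two total libraries. Its log2 fold change against total RNA was -1.81 ± 1.57 (adjusted p = 0.515) with all libraries and 2.11 without HL60 sEV total replicate 1, so that the direction of this source was set by that library. The mean over the 6 sources was 0.81 ± 0.48 (adjusted p = 0.172), against a median of -0.82 over all features. Without TMM scaling it was 1.5 (adjusted p = 0.0107), with a median of -0.19 over all features. NEAT1 and KCNQ1OT1 therefore stood on opposite sides of 0 in this fit, in both scalings, and the difference between the 2 genes was not tested.

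rPAL RNA of sEV held KCNQ1OT1 at a higher CPM than rPAL RNA of cells, without passing the test. KG1a sEV rPAL averaged 25.2 ± 18.5 CPM (n = 3) against 3.86 ± 1.70 in cells (n = 4), with no overlap (log2 1.91 ± 1.45, adjusted p = 0.582). HL60 sEV rPAL averaged 21.1 CPM against 3.75 in cells, again with no overlap (log2 2.37 ± 1.53, adjusted p = 0.361). DESeq2 gave 2.90 for the HL60 difference (adjusted p = 0.0170). For lEV the differences were 0.76 ± 1.5 in KG1a (adjusted p = 0.887) and 1.04 ± 1.6 in HL60 (adjusted p = 0.692).

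**Figure D3:**
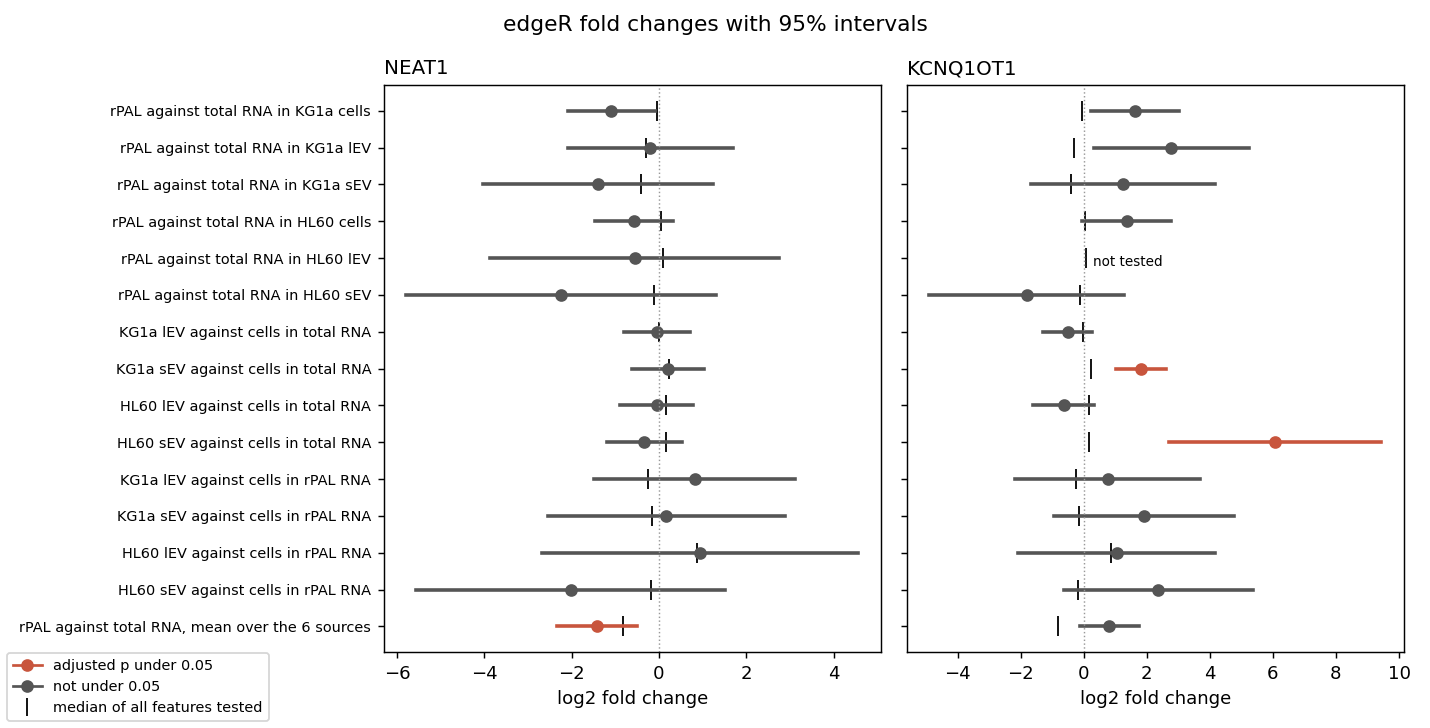
Log2 fold change of NEAT1 (left) and KCNQ1OT1 (right) in 15 comparisons, each point with its interval and a tick at the median of all features tested. Intervals take the SE times the normal quantile for 95%, which is too narrow for so few libraries. Red marks an edgeR adjusted p under 0.05: NEAT1 only in the mean over the 6 sources (-1.42), KCNQ1OT1 only in sEV against cells in the total RNA of KG1a (1.81) and HL60 (6.07).

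Whether the pull-down ratio of a gene differed between vesicles and their cells was asked with interaction contrasts over 4 groups. For NEAT1 the vesicle ratio minus the cell ratio was 0.98 ± 1.08 in KG1a lEV (adjusted p = 0.734), -0.04 ± 1.25 in KG1a sEV (adjusted p = 1.00), 0.76 ± 1.80 in HL60 lEV (adjusted p = 0.841) and -2.32 ± 1.81 in HL60 sEV (adjusted p = 0.436). For KCNQ1OT1 it was 1.38 ± 1.40, 0.06 ± 1.54, 1.22 ± 1.67 and -3.99 ± 1.86 in the same order (adjusted p = 0.709, 1.00, 0.692 and 0.167). None was called, in contrasts that called 0%, 0.0584%, 12.7% and 13.2% of features. The KG1a lEV contrast called 0 of 10442 features with edgeR, while 1499 had an unadjusted p under 0.05 and DESeq2 called 403. The KCNQ1OT1 value of -3.99 in HL60 sEV turned to 1.21 without HL60 sEV total replicate 1. For MALAT1, with 1 count in all rPAL RNA, only the KG1a lEV contrast returned a value, whose SE was so large that it carries no information.

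KCNQ1, the potassium channel gene whose introns and exons KCNQ1OT1 crosses on the other strand (chr11:2444684-2849110, plus strand), had 362 counts in 28 libraries and at most 89 in one. Whether counting used strand is not given in the sources used here, so reads of KCNQ1 and of KCNQ1OT1 cannot be told apart where their exons overlap. KCNQ1 averaged 0.0445 ± 0.0516 CPM in KG1a cells total and 0.947 ± 0.361 in KG1a cells rPAL. In HL60 cells it was 0.118 ± 0.109 in total and 1.82 ± 1.35 CPM in rPAL RNA (log2 3.59 ± 1.01, adjusted p = 0.0194), a fit it entered through rPAL RNA alone. Over the 6 sources KCNQ1 rose by 3.53 on the log2 scale in rPAL RNA (SE 0.66, adjusted p = 9.58e-06). In total RNA KCNQ1 had at most 12 counts in a library. It entered this fit, too, only through rPAL RNA, where it is high, so its call is no independent support for a difference. Of the 14 listed genes of this imprinted region 9 were tested in that fit, 4 rose and 2 fell, where 43.9% of all features were called (1761 rose and 6330 fell of 18423). KCNQ1 was among the 4 risers. KCNQ1DN, a noncoding neighbour that is also among the other nuclear lncRNAs below, had a mean log2 fold change of 7.03 ± 0.98 (adjusted p = 1.03e-06). Its level was uneven, 2151 ± 3724 CPM in KG1a sEV rPAL against 2.04 ± 2.37 in total RNA, where it was not called (adjusted p = 0.332), and it was near 0 in the total RNA of cells. HL60 sEV had 312 ± 327 CPM in rPAL RNA against 1.55 ± 1.92 in total RNA. KCNQ1DN was thus counted mainly in rPAL RNA, with an SD above its mean in sEV, so its call over the 6 sources is given no weight. CARS1, which encodes cysteinyl-tRNA synthetase, rose by 1.94 ± 0.56 (adjusted p = 0.00346). In KG1a sEV against cells in total RNA 2 of 4 tested genes of the region rose, beside 45.1% of all features called. TSSC4, a splicing factor gene, was one of them, with 23.9 ± 33.5 CPM in sEV against 0.166 ± 0.135 in cells. It entered that fit through sEV alone, and its SD exceeds its mean there, so its call is given no weight.

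Of 21 other nuclear lncRNAs in the table, 16 were tested in the mean over the 6 sources, where 2 rose and 1 fell in rPAL RNA (median -0.20), beside the 43.9% of all features called. KCNQ1DN, whose call is given no weight, was 1 of the 2 risers. In KG1a lEV against cells in total RNA 5 of 8 tested fell and 1 rose (median -2.0, against -0.01 over all features), where 52.3% of all features were called (2216 fell of 7780). LINC-PINT, a p53-regulated lncRNA, gave -2.4 there on the log2 scale (SE 0.48, adjusted p = 0.000624), from 2.67 ± 0.988 to 0.520 ± 0.248 CPM. Like MALAT1, it passed the count filter only through the cells, where it is high, so its call is no independent support for a difference. In KG1a sEV total 1 of 9 tested rose and 2 fell (median -0.63, against 0.22 over all features; 45.1% of features called). The riser was SNHG14, the imprinted transcript of the Prader-Willi region (1.6 ± 0.58, adjusted p = 0.0393), which gave -0.43 ± 0.43 in HL60 sEV (adjusted p = 0.504). In KG1a it had 3.13 ± 2.31 CPM in sEV against 0.446 ± 0.248 in cells. It entered the KG1a fit through sEV alone, where it is high, so its call is no independent support for a difference. Of 19 lncRNAs that host snoRNAs, 17 of 19 tested fell in rPAL RNA over the 6 sources and none rose (median -3.58), where 6330 of all 18423 features fell. GAS5, a host of many box C/D snoRNAs, fell by 3.58 on the log2 scale (SE 0.45, adjusted p = 4.07e-10). Of the 8 tested small nuclear RNAs and nuclear RNase RNAs 7 fell and none rose (median -5.87) in that same fit, and RNU4-2, the U4 spliceosomal RNA, fell by 6.75 (SE 0.63, adjusted p = 8.88e-14). NEAT1, at -1.42 in the same fit, lay between these medians and that of the other nuclear lncRNAs.

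The mRNAs of paraspeckle and speckle proteins are listed as the protein side of the bodies that hold NEAT1 and MALAT1. Of 16 paraspeckle protein mRNAs, 5 of 14 tested rose in KG1a lEV total against cells and none fell, and in KG1a sEV total 5 of 14 rose and 1 fell. Counting both directions, these are shares no higher than the 52.3% and 45.1% of all features called there. By direction, 1854 of all 7780 features rose and 2216 fell in KG1a lEV. In KG1a sEV 2009 of 8725 rose and 1924 fell. NONO, a core paraspeckle protein, rose by 1.20 ± 0.31 in KG1a lEV (adjusted p = 0.00423), while SFPQ, its partner, gave 0.45 ± 0.31 (adjusted p = 0.241). In HL60 total RNA 1 of 13 rose in lEV and 1 of 14 in sEV, and none fell, beside 27.3% and 26.7% of all features called. Over the 6 sources 2 of 16 rose and 6 fell in rPAL RNA (median -0.91). Of all 18423 features in that fit 1761 rose and 6330 fell (median -0.82), so the list lay near all features. Of 15 nuclear speckle protein mRNAs, 5 of 14 rose and 2 fell in KG1a lEV total, and 5 of 15 rose and 2 fell in KG1a sEV total, 7 of 14 and 7 of 15 called, near the share of all features (52.3% and 45.1%). SRSF3, a splicing factor, rose by 1.27 ± 0.41 in KG1a sEV (adjusted p = 0.0245), where MALAT1 was at 7 counts. In HL60 1 of 15 rose and 2 fell in lEV total, and 0 rose and 2 fell in sEV total, beside 27.3% and 26.7% of all features called. In the mean over the 6 sources 2 of 15 speckle mRNAs rose and 4 fell (median -0.26), beside 43.9% of all features called.

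**Figure D4:**
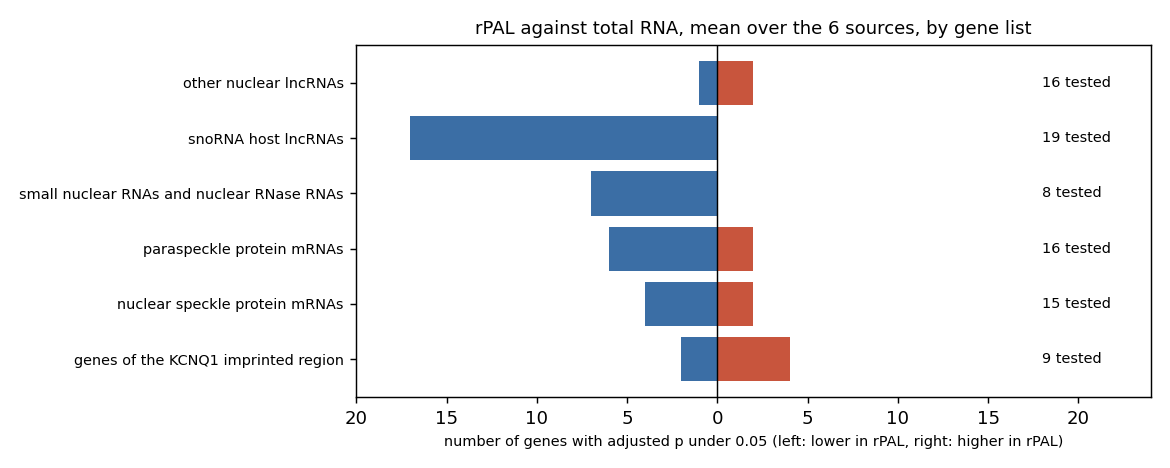
Number of genes of each list with an edgeR adjusted p under 0.05 in rPAL against total RNA, mean over the 6 sources; bars to the left count genes lower and bars to the right genes higher in rPAL RNA, with the number tested at the right. The snoRNA hosts stand out with 17 of 19 lower, while of the other nuclear lncRNAs 2 were higher and 1 was lower. Of all 18423 features tested 1761 were higher and 6330 lower.

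Between the 3 genes the group means of log2(CPM + 0.5) went together only loosely, which is given as a description over 12 groups that share libraries and depth. Pearson's r was 0.385 for NEAT1 with MALAT1, -0.088 for NEAT1 with KCNQ1OT1 and -0.391 for MALAT1 with KCNQ1OT1. Among features with a symbol and at least 5 CPM on average, those closest to NEAT1 over the 12 groups were PPP6R3, JUND, CTSC and PRKDC (r from 0.935 to 0.903), all protein-coding. The closest to KCNQ1OT1 were SHISA6, ARHGEF11, AC011453.1, DLGAP1 and TTTY14 (r from 0.953 to 0.945). For KCNQ1OT1, 9.06% of the 1424 candidates had an r over 0.8, against 3.79% for NEAT1, so many features share its profile. HL60 sEV total replicate 1, where 317 of 1254 features stood far above both other replicates, enters these group means. Its part in these correlations was not tested. The closest to MALAT1 were ELAVL4, LINC01945, IRAK3, CEP19 and LINC01297 (r from 0.915 to 0.841), though 9 of the 12 groups held 3 counts of MALAT1 or fewer. Over the 38 single libraries the same genes gave lower values. With NEAT1 they were 0.615 for PPP6R3, 0.350 for JUND, 0.659 for CTSC and 0.399 for PRKDC, and SHISA6 gave 0.769 with KCNQ1OT1.

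Per kilobase of exon, the order of the 3 genes changed with the source. NEAT1 had 76.1 times the CPM per kb of KCNQ1OT1 in KG1a cells total and 108 times in KG1a lEV total, but 28.4 times in KG1a sEV total. In rPAL RNA these ratios were lower, 12.8 in KG1a cells, 16.4 in KG1a lEV and 3.90 in KG1a sEV. In HL60 cells the ratio was 27.6 in total and 6.86 in rPAL RNA, and in HL60 lEV 41.7 and 6.59. Only in HL60 sEV was KCNQ1OT1 the higher of both genes per kb, with ratios of 0.315 in total RNA, where 1 library carries the mean, and 0.263 in rPAL RNA. NEAT1 stood above MALAT1 per kb in every group in which MALAT1 had a count, by 9.25 times in KG1a cells total and 12.4 times in HL60 cells total.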

How the data were processed

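The authors deposited raw read counts per feature, and the submitters' processing notes name Bowtie2 and the build GRCh38 (hg38). The counting program and its strand setting, the annotation and the handling of multi-hit reads are not given in the sources used here. All 38 columns matched a labelled sample. Levels are counts per 1000000 of the library total (CPM). All features entered edgeR 4.0.16 (R 4.3.3; filterByExpr, TMM scaling, robust quasi-likelihood test, Benjamini-Hochberg adjustment within each of 19 comparisons, called at 0.05). Only the groups compared entered a fit, except that the mean over the 6 sources used all 38 libraries. A gene that the filter dropped was tested by an exact two-sided permutation test on log2(CPM + 0.5). A group at 0 was set to 3 counts in all for a fold.

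The 3 genes and the gene lists were chosen with earlier results of these data known. Named genes are the 3 members, the 5 genes most like each, and up to 4 genes per list with the highest mean CPM, of which the text gives a part. KCNQ1 is named because it overlaps KCNQ1OT1, and PCNA was added after its values were seen. Lists and loci were matched through GENCODE 29, which gave a symbol to 57355 features. Its gene versions are older than the table's (8 against 12 for NEAT1 and MALAT1). Alternatives were DESeq2 1.42.0, no TMM scaling, no count filter, at least 10 counts in every library of a group, a replicate block and leaving out libraries. The fits were tested on counts simulated with a spread set below that of the data. The shares recovered are therefore likely too high for the real libraries, in both comparisons that follow. For rPAL against total RNA of KG1a cells, 81 of 100 features changed by 2 on the log2 scale were recovered. With a change of 3 it was 98 of 100. For HL60 sEV the numbers were 26 of 100 and 64 of 100, so many true changes of these sizes would be missed there. Replicate numbers showed pairing of the libraries in 0 of 14 comparisons, judged by how deviations of same-numbered libraries correlated, and were treated as unpaired. With 3 or 4 pairs in a comparison, this check cannot exclude that libraries were paired by design.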

Additional observations from a re-analysis of the deposited data

How the results depend on the processing

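Of 524 alternatives to 45 differences of the 3 genes, 465 kept the direction and the side of the threshold, 12 lost the call, 7 gained one and 40 turned direction. With 67 counts in all, MALAT1 allows no comparison between vesicle groups.

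Without TMM scaling NEAT1 was 0.0427 and 0.95 in rPAL against total RNA of KG1a and HL60 lEV, 0.0850 in KG1a lEV and 1.44 in KG1a sEV against cells in total RNA and -0.66 in the mean over the sources. KCNQ1OT1 was 1.5 in that mean, and its KG1a sEV ratio minus the cell ratio was -0.14. With at least 10 counts in every library of a group NEAT1 was 0.0212 in rPAL against total RNA of KG1a lEV, 0.11 in HL60 lEV against cells in total RNA and 0.39 in the KG1a sEV ratio difference. With no count filter MALAT1 was -3.21 in KG1a sEV against cells (total), KCNQ1OT1 5.56 in HL60 sEV against cells (total) and -0.27 in the KG1a sEV ratio difference, and NEAT1 -0.24 in KG1a sEV against cells (rPAL). DESeq2 gave KCNQ1OT1 2.90 in HL60 sEV against cells (rPAL) and NEAT1 0.86 in the KG1a sEV ratio difference.

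The replicate block, for numbers that showed no pairing in the check, gave KCNQ1OT1 0.90 in rPAL against total RNA of HL60 sEV and 2.75 in HL60 sEV against cells (total). NEAT1 was 0.10 in KG1a lEV against cells (total), -1.83 in HL60 lEV against cells (rPAL) and -0.46 in the HL60 lEV ratio difference.

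Leaving out single libraries moved NEAT1 from -5.11 to 0.0762 in rPAL against total RNA of HL60 lEV. Against cells in total RNA NEAT1 ran from -0.34 to 0.21 in KG1a lEV, -0.0343 to 0.38 in KG1a sEV and -0.25 to 0.0735 in HL60 lEV, and against cells in rPAL RNA from -0.31 to 0.80 in KG1a sEV and -4.48 to 1.16 in HL60 lEV. Its ratio differences ran from -0.40 to 0.22 in KG1a sEV, -3.70 to 1.06 in HL60 lEV and -7.75 to -1.40 in HL60 sEV. For the mean over the sources a replicate number was left out of every group at once, with -2.29 to -1.11. KCNQ1OT1 ran from 2.22 to 3.23 and from -3.18 to 2.11 in rPAL against total RNA of KG1a lEV and HL60 sEV, from 1.05 to 6.54 in HL60 sEV against cells (total) and from -0.84 to 1.65 in HL60 lEV against cells (rPAL). Its ratio differences ran from -0.46 to 0.49 in KG1a sEV, -0.46 to 1.69 in HL60 lEV and -4.56 to 1.21 in HL60 sEV. MALAT1 in rPAL against total RNA of KG1a cells ran from -1.71 to -1.28, and without any 1 rPAL library the exact permutation p was 0.0571. The cause was not tested for any of these.

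The number of features called, in all and over DESeq2, no TMM scaling, both count filters and the replicate block, varied as follows. In rPAL against total RNA it was 599 (1 to 1269) in KG1a lEV, 537 (26 to 1117) in KG1a sEV, 1006 (309 to 1421) in HL60 lEV and 681 (226 to 1173) in HL60 sEV. In rPAL RNA against cells it was 38 (4 to 482) in KG1a lEV, 419 (116 to 1197) in KG1a sEV, 719 (259 to 1206) in HL60 lEV and 735 (243 to 1083) in HL60 sEV. In total RNA against cells it was 4070 (3490 to 6107) in KG1a lEV and 2018 (1466 to 3903) in HL60 sEV. The ratio differences called 0 (0 to 403), 8 (3 to 378), 1075 (384 to 1313) and 1073 (541 to 991). Leaving out 1 library moved the count in rPAL against total RNA to between 0 and 2117 in KG1a lEV, 0 and 282 in KG1a sEV, 202 and 2516 in HL60 lEV, 149 and 373 in HL60 sEV. For KG1a cells the bounds were 915 and 1926, and for HL60 cells 1732 and 4057. Against cells in total RNA the bounds were 1025 and 2594 for HL60 lEV, with 531 and 3978 for HL60 sEV, and in rPAL RNA 2 and 51, 45 and 631, 169 and 422, and 161 and 473 in KG1a lEV, KG1a sEV, HL60 lEV and HL60 sEV. For the ratio differences it lay between 0 and 43, 2 and 37, 173 and 2033, and 162 and 1318 in the same order. Without TMM scaling the share of calls that were higher moved from 51.1% to 81.0% in KG1a sEV, 44.3% to 10.9% in HL60 lEV and 51.9% to 63.4% in HL60 sEV against cells (total), from 57.0% to 73.7% in KG1a sEV against cells (rPAL), and from 21.8% to 41.7% in the mean over the sources. It moved from 39.4% to 58.1% in rPAL against total RNA of HL60 lEV, from 10.5% to 24.3% in the HL60 lEV ratio difference and from 62.5% to 20% in that of KG1a sEV.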
